A study of Homo sapiens with 4 samples.

Results

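The genes described here are 10 members of the bone morphogenetic protein (BMP) pathway: the ligand genes BMP2, BMP4 and BMP7, the inhibitor genes GREM1, NOG and BAMBI, and the ID genes ID1, ID2, ID3 and ID4. They were picked by gene name, and all 10 were among the 31907 gene names counted. HGC-27, an established human gastric cancer cell line, was treated with PBS (2 libraries) or with 200 ng/ml rIL-17B, recombinant interleukin-17B (2 libraries), and RNA was collected after 48 h in both groups. By the labels all 4 libraries come from this 1 cell line, with no other agent or allele named, and nothing in the labels says that the replicates were separate cultures, so the spread between replicates may be technical. The comparison asked how the transcriptome of HGC-27 cells differed after rIL-17B treatment.

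BMPs are secreted proteins of the TGF-beta superfamily. They bind type I and type II serine/threonine kinase receptors, which phosphorylate SMAD1, SMAD5 and SMAD9, and these enter the nucleus with SMAD4. The ID genes are the classical immediate targets of this signal. ID proteins contain a helix-loop-helix but no DNA-binding region, so they capture E proteins (TCF3, TCF4 and TCF12) and keep them from DNA, which holds back differentiation. In the gut, BMP signals favor differentiation of the epithelium, and antagonists made by the stroma around the stem cells hold them back.

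The libraries held between 12888029 and 17555879 counts, and 3 counts, the floor used here for a count of 0, corresponded to between 0.171 and 0.233 CPM. CPM is the count divided by the total of its own library, times 1000000, and intervals and this floor cover counting error only, because PCR copies of 1 molecule can be counted more than once. rIL-17B replicate 1 stood apart from the other 3 libraries. In it, 7 mesenchymal genes summed to 719 CPM, against 36205 to 43455 CPM in the other libraries, and 8 neural and glial genes summed to 27.6 CPM, against 280.7 to 608 CPM. The 7 epithelial genes summed to 1859 CPM, against 805 to 1032 CPM, mostly KRT8 and KRT18 (1457 and 355.0 CPM in that library). KRT19 went the other way, with 1 count in that library against 43 to 58 in the others, and CDH1, which encodes E-cadherin, was at only 7 to 11 counts throughout. One protocol label speaks of monocytes, but 8 monocyte and leukocyte genes summed to only 8.55 to 10.8 CPM. Of these 8, 5 were at 0 in rIL-17B replicate 1, against 0 or 1 in the others, and CSF1R alone gave 8.14 of its 8.55 CPM. The 5 endothelial genes summed to 1.09 CPM in rIL-17B replicate 1 and to between 22.6 and 35.5 CPM in the others. To a lesser degree, rIL-17B replicate 2 differed from PBS on the same side. Its mesenchymal sum was 36205 CPM, against 43455 and 42525 with PBS, and its neural sum was 280.7, against 387 and 608. Its endothelial sum was 22.6 CPM, against 27.5 and 35.5, and its epithelial sum was 1032, against 805 and 815. Only its monocyte and leukocyte sum (10.8 CPM, against 10.1 and 10.2) went the other way. SOX10 was at 0 in all libraries. Of the neural and glial genes 4 were at 0 in rIL-17B replicate 1, against 1 in every other library. COL1A2, a collagen gene, had 16 counts in rIL-17B replicate 1 against 67635 to 87731 in the others, and FN1, which encodes fibronectin, was at 148.6 CPM against 27450 to 33131 CPM. FN1 was most of the mesenchymal sum in the other libraries. The mesenchymal genes VIM (279.8 CPM against 614.7 to 726.8) and CDH2 (55.8 CPM against 111.8 to 130.0) differed far less. SPARC, ZEB1 and ZEB2 were lower in rIL-17B replicate 1 too. The PBS libraries themselves held COL1A2 at 5516 and 5248 CPM and OLIG2, 1 of the neural and glial genes, at 39.9 and 67.4 CPM. Whether any of the libraries, PBS included, holds the cells that its label names was not tested. Every value here, and above all those of rIL-17B replicate 1, carries that limit. The levels are therefore given for both rIL-17B libraries separately, and the part of these marker differences in the results was not tested. In such bulk RNA, fewer cells of a type and less RNA per cell cannot be told apart.

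Across all 4 libraries, none of the 10 genes passed the test between rIL-17B and PBS. edgeR's quasi-likelihood test called 0 of 16361 genes at an adjusted p of 0.05, that is 0%, and 226 genes had an unadjusted p under 0.05 (1.38%), none of them among the 10. DESeq2 also called 0 genes, and gave 457 genes an unadjusted p under 0.05 (2.79%), with ID1 and ID3 among them. With 2 libraries in each group that differ as the rIL-17B libraries did, the levels themselves carry the description. NOG, ID1, ID2 and ID3 lay above both PBS libraries in both rIL-17B libraries, 4 of 10 against a background of 31.5% of the genes tested. BMP2, BMP7, GREM1, BAMBI and ID4 lay below them in both, 5 of 10 against a background of 27.5%, and BMP4 overlapped between the groups. On the TMM scale of edgeR NOG also overlapped, 3 genes remained above and the same 5 remained below. The share over all genes tested is not given on that scale, so these TMM counts have no background beside them.

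Levels between genes were compared per kilobase of annotated exon. In the PBS libraries ID3 was the highest with 178.6 ± 0.0230 CPM per kb (SD, n = 2 libraries, as for all means here), followed by ID1 with 80.0 ± 1.85, ID2 with 24.4 ± 1.95 and ID4 with 15.4 ± 3.46 CPM per kb. The inhibitors came next, GREM1 with 5.92 ± 0.271 and BAMBI with 4.16 ± 0.000449 CPM per kb. In CPM the PBS mean of GREM1 (86.4) lay above those of ID2 (53.8) and ID4 (36.2). Its place under them thus depends on the exon length of 14606 bases used for GREM1. The ligands BMP2 with 1.92 ± 0.0531, BMP7 with 1.66 ± 0.527 and BMP4 with 1.59 ± 0.0359 CPM per kb were low, and NOG was lowest with 0.723 ± 0.152 CPM per kb. By the values of the 2 libraries, BMP7 overlapped with its neighbors BMP2 and BMP4 in this order, and no other neighbors overlapped. By 95% counting intervals NOG (up to 1.23 CPM per kb in PBS replicate 1) also overlapped with BMP4 (from 1.20 in PBS replicate 2). An SD of 2 libraries can lie far under counting error, as for BAMBI (interval 3.52 to 4.87 CPM per kb in PBS replicate 1). The order of the first 6 genes was the same in rIL-17B replicate 2. In rIL-17B replicate 1, ID4 ranked 9 and BMP7 ranked 10, while NOG ranked 6.

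Among the ligands, BMP2 and BMP4, close relatives that act on bone and gut development, are described first. BMP2 (chromosome 20, 6767664 to 6780280, + strand, GENCODE 29 on GRCh38) had 108 and 91 counts with PBS, against 97 in rIL-17B replicate 1 and 107 in replicate 2. These counts were 6.79 and 7.06 CPM with PBS, against 6.64 and 6.09 CPM with rIL-17B. Both rIL-17B libraries lay just under both PBS libraries, but the counting interval of each included the PBS mean, with ratios of 0.958 (0.745 to 1.23) and 0.880 (0.691 to 1.12). edgeR gave BMP2 a log2 fold change of -0.19 (with its standard error, SE, 0.22, adjusted p = 0.699 from edgeR).

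BMP4 (chromosome 14, 53949736 to 53958761, - strand) had 79 and 62 counts with PBS, 16 counts in rIL-17B replicate 1 and 86 counts in replicate 2. In CPM this was 4.97 and 4.81 with PBS, 1.09 in rIL-17B replicate 1 and 4.90 in replicate 2. Replicate 1 was thus 4.47-fold lower than the PBS mean (95% counting interval 2.66 to 8.04), and replicate 2 lay between the PBS libraries. Over all libraries BMP4 had a fitted log2 value of -0.73 (SE 0.84, adjusted p = 0.704 from edgeR).

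BMP7, a ligand studied above all in kidney and skeletal development (chromosome 20, 57168748 to 57266629, - strand), had 111 and 142 counts with PBS, 109 counts in rIL-17B replicate 2 and none in rIL-17B replicate 1. The levels were 6.98 and 11.0 CPM with PBS, and 6.21 CPM in rIL-17B replicate 2, so both rIL-17B libraries lay below both PBS libraries. Against the 3-count floor, replicate 1 was at least 43.8-fold lower than the PBS mean. The 95% counting interval allowed less, with a lower limit of 34.6-fold. The PBS libraries themselves differed 1.58-fold, the widest difference among the 10 genes, and replicate 2 was 1.45-fold below their mean (1.13 to 1.79). For BMP7 edgeR estimated a log2 fold change of -1.53 (SE 2.03, adjusted p = 0.726 from edgeR).

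The inhibitors act at different places. Gremlin-1, encoded by GREM1, and noggin, encoded by NOG, bind BMPs outside the cell, and BAMBI is a pseudoreceptor without a kinase domain that sits in the membrane. GREM1 (chromosome 15, 32717974 to 32745107, + strand) was the most abundant of the 3, with 1330 and 1150 counts with PBS, 112 counts in rIL-17B replicate 1 and 1065 counts in replicate 2. Its level was 83.6 and 89.2 CPM with PBS, 7.66 CPM in rIL-17B replicate 1 and 60.7 CPM in replicate 2. Both rIL-17B libraries were below both PBS libraries, 11.3-fold under the PBS mean (9.30 to 13.7) in replicate 1 and 1.42-fold (1.32 to 1.53) in replicate 2. The PBS libraries differed 1.07-fold. GREM1, like BMP4, BMP7, BAMBI and ID4, was lowest in the library where the mesenchymal sum was lowest (719 CPM). ID1, ID2 and ID3 were highest in that same library, where the epithelial sum was highest (1859 CPM). The neural and endothelial sums were lowest there too, and the part of any of these sums in the values was not tested. The estimate for GREM1 was a log2 fold change of -1.36 (SE 1.08, adjusted p = 0.661 from edgeR).

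NOG (chromosome 17, 56593699 to 56595590, + strand) had 25 and 15 counts with PBS against 23 and 35 with rIL-17B. These small counts gave 1.57 and 1.16 CPM with PBS against 1.57 and 1.99 with rIL-17B, and the counting intervals of both ratios included the PBS mean. Its log2 fold change was 0.32 (SE 0.40, adjusted p = 0.718 from edgeR). BAMBI (chromosome 10, 28677342 to 28682939, + strand) had 153 and 124 counts with PBS, 79 counts in rIL-17B replicate 1 and 160 counts in replicate 2. The PBS libraries were both at 9.62 CPM, rIL-17B replicate 1 was at 5.41 CPM and replicate 2 was at 9.11 CPM. Replicate 1 was 1.78-fold below the PBS mean (1.38 to 2.32), and the interval of replicate 2 included it. The log2 fold change of BAMBI was -0.46 (SE 0.38, adjusted p = 0.662 from edgeR).

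Per kilobase, GREM1 was 1.20 and 1.10 times the sum of BMP2, BMP4 and BMP7 in the PBS libraries, 0.239 times in rIL-17B replicate 1 and 0.938 times in replicate 2. For NOG the same ratio was 0.174 and 0.111 with PBS and 0.378 and 0.238 with rIL-17B. GREM1 was 6.89 and 9.93 times NOG with PBS, 0.631 times in rIL-17B replicate 1 and 3.94 times in replicate 2. In rIL-17B replicate 1 the counting intervals overlapped per kilobase, with 0.432 to 0.631 CPM per kb for GREM1 and 0.527 to 1.25 for NOG. In CPM, GREM1 stayed above NOG there (7.66 against 1.57), so the ratio under 1 depends on the exon length of 14606 bases used for GREM1. All ratios of GREM1 in this paragraph, also those to the ligand sum, depend on that length.

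The ID genes are shown first by the 250 bases before their RefSeq transcription starts (GRCh38.p14, 5′ to 3′ on the strand of the gene), because ID1 and ID3 lay together above PBS while ID4 went the other way. RefSeq windows were found for 7 of the 10 genes. The capitals mark 4 motifs searched on both strands: TATAAA, the TATA box, CANNTG, the E-box bound by E proteins, GTCT, the short SMAD box, and GGCGCC, a GC-rich BMP element. The windows are chr20:31605039-31605288 on the + strand for ID1, chr2:8681806-8682055 on the + strand for ID2, chr1:23559502-23559751 on the - strand for ID3 and chr6:19837120-19837369 on the + strand for ID4.
ID1: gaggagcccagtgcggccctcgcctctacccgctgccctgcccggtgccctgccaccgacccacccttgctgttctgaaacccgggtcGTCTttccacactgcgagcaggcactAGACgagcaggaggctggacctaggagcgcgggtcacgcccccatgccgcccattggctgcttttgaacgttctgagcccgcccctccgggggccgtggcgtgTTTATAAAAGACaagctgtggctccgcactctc
ID2: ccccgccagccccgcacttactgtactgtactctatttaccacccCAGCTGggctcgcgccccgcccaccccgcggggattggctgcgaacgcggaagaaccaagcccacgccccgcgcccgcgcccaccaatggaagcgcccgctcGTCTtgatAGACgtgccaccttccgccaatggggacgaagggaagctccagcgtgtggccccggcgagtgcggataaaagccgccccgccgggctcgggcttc
ID3: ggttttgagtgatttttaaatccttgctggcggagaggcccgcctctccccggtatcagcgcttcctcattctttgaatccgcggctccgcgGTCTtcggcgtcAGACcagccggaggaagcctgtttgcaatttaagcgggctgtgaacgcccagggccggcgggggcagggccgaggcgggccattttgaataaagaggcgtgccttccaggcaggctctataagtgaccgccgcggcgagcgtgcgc
ID4: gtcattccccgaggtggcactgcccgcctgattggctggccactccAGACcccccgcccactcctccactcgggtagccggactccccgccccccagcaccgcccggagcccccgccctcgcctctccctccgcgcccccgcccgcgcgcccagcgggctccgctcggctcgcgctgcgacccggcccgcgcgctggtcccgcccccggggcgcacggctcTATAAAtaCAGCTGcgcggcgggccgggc
TATAAA began 31 bases before the start of ID1, where it overlaps the same motif on the other strand and touches a SMAD box, and 29 bases before the start of ID4. These letters were not in the windows of ID2 and ID3, and 10.7% of all 35116 windows of this length held them. The E-box CAGCTG began 205 bases before the start of ID2 and 21 bases before that of ID4, and CANNTG was in 61.8% of all windows. The SMAD box was found 3 times for ID1, 2 times each for ID2 and ID3 and 1 time for ID4, and 77.5% of all windows held it. GGCGCC was in none of the 4 windows and in 16.4% of all. A match is a description of letters, not a bound site.

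ID1 (chromosome 20, 31605283 to 31606515, + strand) had 1594 and 1250 counts with PBS, 2333 counts in rIL-17B replicate 1 and 2047 counts in replicate 2. Its level was 100.2 and 97.0 CPM with PBS, 159.6 CPM in rIL-17B replicate 1 and 116.6 CPM in replicate 2. Both rIL-17B libraries lay above both PBS libraries, 1.62 times the PBS mean (1.53 to 1.71) in replicate 1 and 1.18 times (1.11 to 1.25) in replicate 2. The PBS libraries differed 1.03-fold, and the log2 fold change was 0.41 (SE 0.15, adjusted p = 0.661 from edgeR).

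ID3 (chromosome 1, 23557918 to 23559794, - strand), the most abundant of the 10, had 5105 and 4136 counts with PBS against 9228 and 6795 with rIL-17B. The PBS libraries were at 321.0 and 320.9 CPM, rIL-17B replicate 1 was at 631 CPM and replicate 2 was at 387 CPM. The ratios to the PBS mean were 1.97 (1.91 to 2.03) and 1.21 (1.17 to 1.24), the same order of libraries as for ID1. ID3 had a log2 fold change of 0.58 (SE 0.24, adjusted p = 0.661 from edgeR). On the TMM scale, the ratios of replicate 1 were 1.79 for ID3 and 1.47 for ID1.

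ID2 (chromosome 2, 8678845 to 8684453, + strand), which is also induced by other signals than BMP, had 904 and 654 counts with PBS against 937 and 1013 with rIL-17B. It was at 56.8 and 50.7 CPM with PBS, 64.1 CPM in rIL-17B replicate 1 and 57.7 CPM in replicate 2. The groups did not overlap, but replicate 2 lay only 1.07 times over the PBS mean (0.984 to 1.15), and replicate 1 1.19 times (1.09 to 1.29). ID2 had a log2 fold change of 0.11 (SE 0.11, adjusted p = 0.686 from edgeR).

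ID4, which is known for its part in neural progenitors (chromosome 6, 19837386 to 19840684, + strand), went the other way. It had 484 and 540 counts with PBS, 351 counts in rIL-17B replicate 2 and 1 count in rIL-17B replicate 1. The levels were 30.4 and 41.9 CPM with PBS and 19.99 CPM in rIL-17B replicate 2, so that all rIL-17B values lay below all PBS values. The ratio of replicate 1 to the PBS mean was 0.00189 (4.87e-05 to 0.0107), and replicate 2 was 1.81-fold lower than the PBS mean (1.57 to 2.01), while the PBS libraries differed 1.38-fold. With all libraries ID4 had a log2 fold change of -1.85 (SE 1.97, adjusted p = 0.687 from edgeR). The neural and glial marker sum was also lowest in replicate 1, with 387 and 608 CPM with PBS against 27.6 and 280.7 with rIL-17B, and its part in the ID4 values was not tested.

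**Figure D1:**
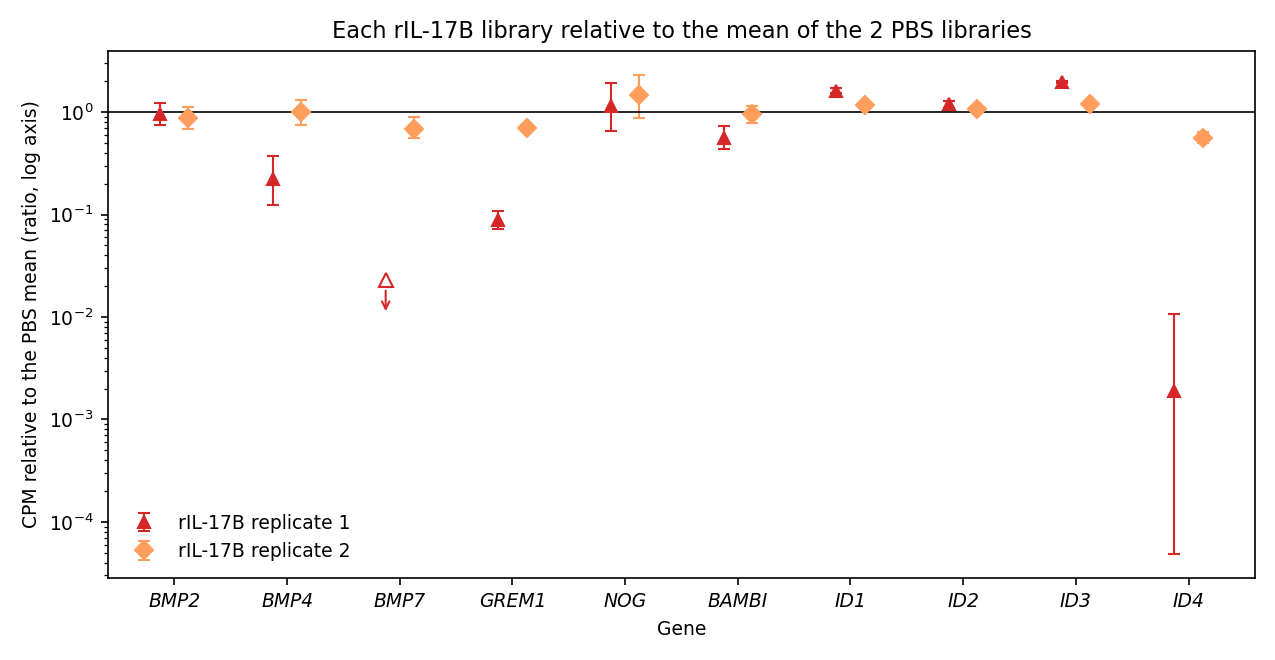
Ratio of each rIL-17B library to the mean of the PBS libraries on a log axis, with 95% exact counting intervals and the line at a ratio of 1. The open triangle with an arrow is the bound for BMP7, which had 0 counts in rIL-17B replicate 1. Apart from BMP7, the ratios of replicate 1 run from 0.00189 for ID4 to 1.97 for ID3, and those of replicate 2 from 0.553 for ID4 to 1.46 for NOG.

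The spread of the 10 genes in rIL-17B replicate 1 was much wider than in replicate 2. BMP4, BMP7, GREM1 and ID4 were at least 2-fold below both PBS libraries in replicate 1, 4 of 10 against a background of 19.3% of the genes tested, and 0 of 10 were 2-fold above them (background 2.54%). In replicate 2, 0 of 10 were 2-fold below (background 1.05%) and 0 of 10 were 2-fold above (background 0.244%).

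Leaving out rIL-17B replicate 1 changed the calls. In that edgeR fit the lone rIL-17B library is assumed to vary as the PBS pair does, and it called 504 of 17103 genes (2.95%). GREM1 passed with -0.51 on the log2 scale (SE 0.10, adjusted p = 6.03e-05 from edgeR), ID4 with -0.85 (SE 0.13, adjusted p = 5.65e-08 from edgeR) and ID3 with 0.27 (SE 0.08, adjusted p = 0.0445 from edgeR). ID1 missed the threshold with 0.24 (SE 0.09, adjusted p = 0.154 from edgeR), as did BMP7 with -0.52 (SE 0.22, adjusted p = 0.231 from edgeR). The other 5 had adjusted p values between 0.721 and 0.9997 from the same edgeR fit. Over the 10 alternative fits of GREM1 and ID3 and the 9 of ID4, the adjusted p from edgeR or DESeq2 ran from 1.11e-137, 8.98e-26 and 6.97e-122 up to 0.977. Without rIL-17B replicate 2, 7 of the 10 genes passed (all but BMP2, NOG and ID2), when 55.1% of all genes tested did so.

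The BMP-class ligands were not limited to the 3 described above. Of 12 further ligand genes, 8 had counts, and BMP6, which is known for its part in iron balance, and BMP5 were the highest per kilobase of all 11 ligands with counts. BMP6 was at 58.2 and 51.6 CPM with PBS, 115.6 CPM in rIL-17B replicate 1 and 65.9 CPM in replicate 2. BMP5 was at 33.5 and 27.9 CPM with PBS, 64.9 CPM in rIL-17B replicate 1 and 39.2 CPM in replicate 2. BMP6 and BMP5 were thus highest in the library with the highest epithelial sum, whose part in the values was not tested. Both genes were higher in both rIL-17B libraries, with log2 fold changes of 0.64 and 0.68 (SEs 0.28 and 0.26, each with an adjusted p of 0.661 from edgeR). GDF5, a ligand of joints named here after its values were seen, had 82 and 57 counts with PBS, 66 counts in rIL-17B replicate 2 and none in replicate 1. Against the 3-count floor, GDF5 in replicate 1 was at least 23.3-fold below the PBS mean.

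Summed over the 11 ligands, the level per kilobase was 37.4 and 34.3 CPM per kb with PBS, 62.3 in rIL-17B replicate 1 and 40.9 in replicate 2. BMP5 and BMP6 were most of it, with BMP6 at 56.0% and 54.2% in the PBS libraries, 66.8% in rIL-17B replicate 1 and 57.9% in replicate 2. BMP2, BMP4 and BMP7 alone summed to 4.79 and 5.56 CPM per kb with PBS, 2.198 in rIL-17B replicate 1 and 4.43 in replicate 2, so the sum of the 3 and the sum of all 11 differed in direction. The 4 ID genes summed to 298.7 and 298.1 CPM per kb with PBS, 509.9 in rIL-17B replicate 1 and 344.6 in replicate 2. ID3 was 59.8% and 59.9% of this sum with PBS, 68.9% in rIL-17B replicate 1 and 62.5% in replicate 2, and ID4 was 4.35% and 5.996% with PBS, 0.00572% and 2.47% with rIL-17B.

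**Figure D2:**
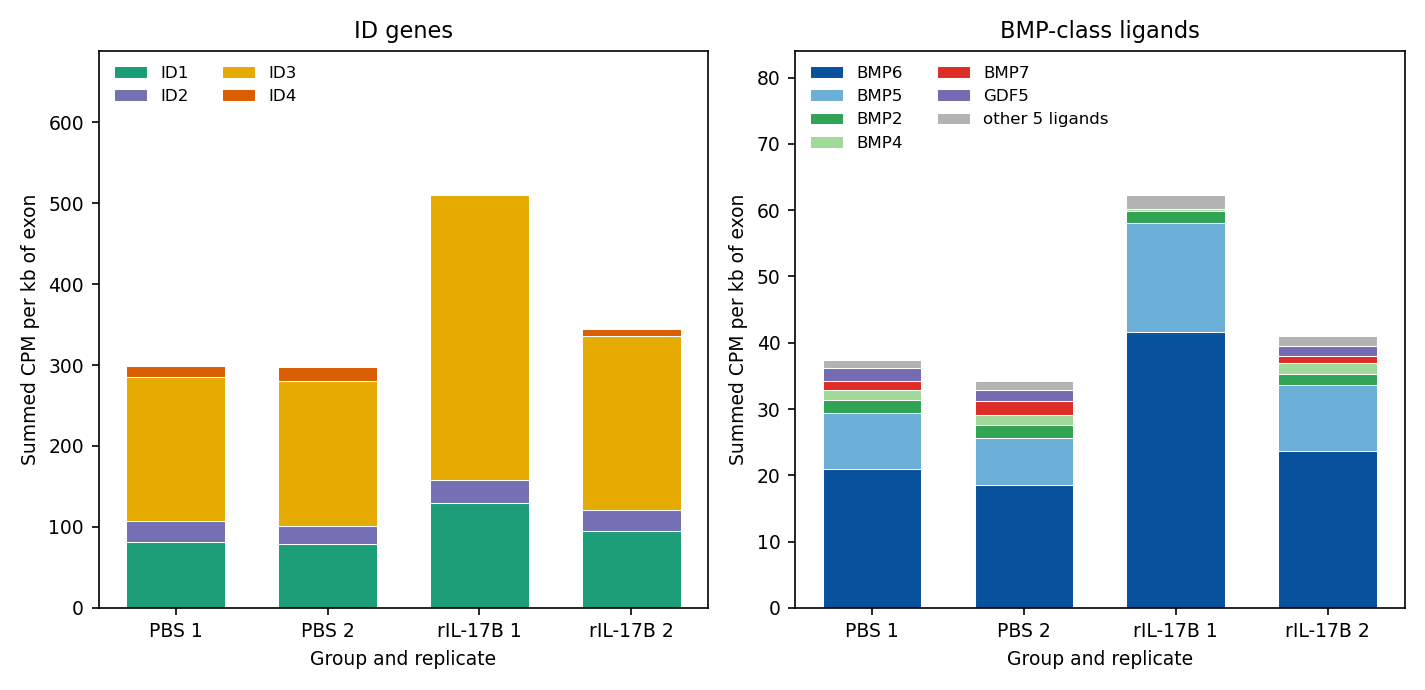
Stacked bars of CPM per kilobase of exon in each library for the ID genes (left) and the BMP-class ligands (right), from 0. The ID sum is 509.9 CPM per kb in rIL-17B replicate 1, mostly ID3, and BMP5 and BMP6 are most of the ligand sum in all 4 libraries.

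The remaining BMP pathway was described by lists written by role. Over the 10 genes the log2 fold change was positive for 4 and negative for 6, with a median of -0.33 (median ratios of 0.760 and 0.975 in rIL-17B replicates 1 and 2), against a median of -0.03 over all 16361 genes tested. Over the other 70 pathway genes, of which 62 had counts and 55 were tested, 0 passed in edgeR and 1, HES1, had an unadjusted p under 0.05. The fitted log2 fold change was positive for 17 of the 55 and negative for 38 (69.1%, against 52.6% of all genes tested), with a median of -0.29. By library, the median ratio of the 55 genes to the PBS mean was 0.868 in rIL-17B replicate 1 (1.06 over all genes tested) and 0.988 in replicate 2 (0.999 over all). Leaving out rIL-17B replicate 1, 2 of 57 tested passed (3.51%, close to the 2.95% over all genes), RGMA with a log2 fold change of -0.64 (SE 0.14, adjusted p = 0.000793 from edgeR) and TWSG1 with -0.31 (SE 0.10, adjusted p = 0.0481 from edgeR).

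Receptors and co-receptors had negative fitted values in 9 of 10 genes, with a median of -0.61. The low values lay mainly in rIL-17B replicate 1, where their median ratio to the PBS mean was 0.441, against 0.947 in replicate 2, in which 7 of the 10 lay below the PBS mean (50.2% of all genes tested did). The type II receptor ACVR2A, with the smallest p, was at 11.8 and 15.1 CPM with PBS against 4.99 and 8.9998 with rIL-17B (log2 fold change -0.99, standard error 0.43, adjusted p = 0.661 from edgeR). ENG, which encodes endoglin and had the highest CPM of the list, was at 158.2 and 154.4 CPM with PBS, 61.2 CPM in rIL-17B replicate 1 and 145.4 CPM in replicate 2. RGMA, a co-receptor, was at 21.8 and 34.8 CPM with PBS against 4.93 and 18.1 with rIL-17B.

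The other extracellular regulators, mainly BMP antagonists, had negative fitted values in 11 of 12 tested genes, with a median of -0.68. Against the PBS mean, their median ratio was 0.498 for rIL-17B replicate 1 and 0.838 for replicate 2, in which 9 of the 12 lay below the PBS mean. Chordin, encoded by CHRD and with the smallest p, was at 7.04 and 9.85 CPM with PBS against 5.41 and 6.44 with rIL-17B. FSTL1, a secreted follistatin-like protein with the highest CPM of the list, was at 913 and 871 CPM with PBS, 301.3 CPM in rIL-17B replicate 1 and 792 CPM in replicate 2. TWSG1, a secreted partner of chordin, was at 92.5 and 81.5 CPM with PBS against 30.99 and 70.3 with rIL-17B. Like GREM1, FSTL1 and TWSG1 were lowest in rIL-17B replicate 1 and below both PBS libraries in replicate 2.

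The SMAD relay had a median of -0.13 over 12 genes, 2 positive and 10 negative (83.3%, against 52.6% of all genes tested). The median ratios were 0.929 and 1.01 in rIL-17B replicates 1 and 2. The sign of the smallest values depended on the scale, and SMAD1 and SMAD5 were positive with library totals alone (0.0293 and 0.0151). SMAD6, an inhibitory SMAD that BMP signals induce, was an exception with 62.9 and 58.9 CPM with PBS, 115.6 CPM in rIL-17B replicate 1 and 71.3 CPM in replicate 2 (log2 fold change 0.53, standard error 0.23, adjusted p = 0.661 from edgeR). SMAD7, the other inhibitory SMAD, named here after its values were seen, was not higher. It was at 32.0 and 31.4 CPM with PBS, 22.4 CPM in rIL-17B replicate 1 and 31.3 CPM in replicate 2. SKIL, a SMAD corepressor with the highest CPM of this list, was at 128.6 and 123.6 CPM with PBS against 123.4 and 128.7 with rIL-17B. The list of other BMP-induced genes had 8 positive and 4 negative values, with a median of 0.24 and median ratios of 1.52 and 1.07. HEY1, a transcriptional repressor and the highest of them, was at 36.0 and 35.8 CPM with PBS, 60.9 CPM in rIL-17B replicate 1 and 38.6 CPM in replicate 2. HES1, a relative of HEY1 and the gene of this list with the smallest p, was lower in both rIL-17B libraries. It was at 14.4 and 16.6 CPM with PBS against 11.2 and 10.6 with rIL-17B (log2 fold change -0.58, standard error 0.18, adjusted p = 0.661 from edgeR). Of the 12 tested genes of this list, 5 lay above both PBS libraries in both rIL-17B libraries (background 31.5%). HES1 was among 3 of the 12 that lay below (background 27.5%).

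Of the E proteins, the partners of ID proteins, TCF3 was at 224.7 and 237.4 CPM with PBS, 347 CPM in rIL-17B replicate 1 and 246.8 CPM in replicate 2. TCF4 was at 97.6 and 116.9 CPM with PBS, 58.4 CPM in rIL-17B replicate 1 and 89.5 CPM in replicate 2. The log2 fold changes were 0.28 and -0.59 (adjusted p = 0.661 for both from edgeR).

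**Figure D3:**
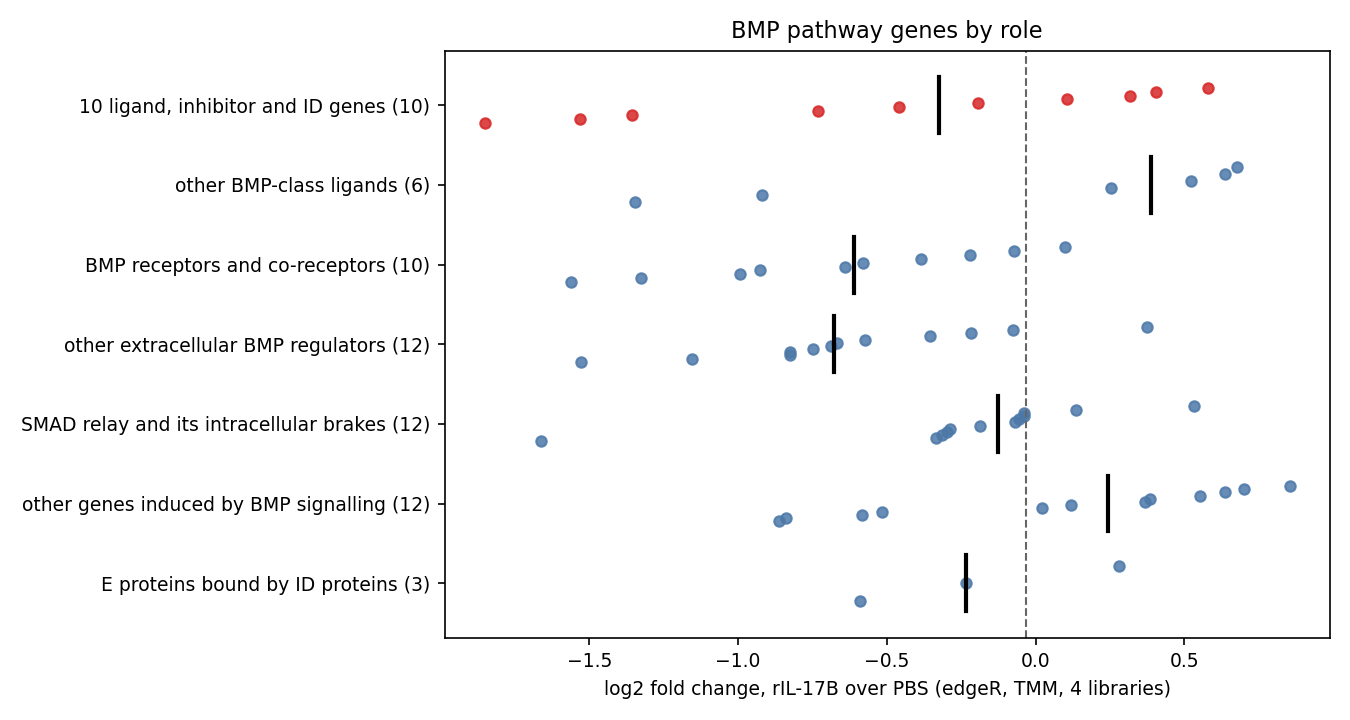
Fitted log2 fold change of each tested gene, rIL-17B over PBS, with the genes grouped by role and the number tested in parentheses. Thick bars are list medians and the dashed line is the median of all genes tested, -0.03. Receptors (median -0.61) and extracellular regulators (median -0.68) lie mostly left of it in this fit of both rIL-17B libraries together, and no point passed the test.

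ID3, ID4 and GREM1, chosen after their values were seen as examples of the different patterns, were compared with 9989 genes of at least 10 CPM on average. Likeness was the root mean square difference of log2 CPM (prior count 2) around each gene's own mean over the 4 libraries. Nearest to ID3 were CCDC34 (difference 0.00693), CCDC51 and N4BP3. Nearest to ID4 were MYEF2 (0.0608), DCC and APBA2, each with 0 counts in rIL-17B replicate 1. Nearest to GREM1 were KLF2 (0.0621), TMOD2 and CPT1C. With only 4 libraries, of which 1 stood apart, nothing about shared control follows from such likeness.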

How the data were processed

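RNA from HGC-27 cells was sequenced in 4 Smart-seq2 libraries (oligo-dT primer, PCR amplification), 2 per group, with the groups taken from the treatment labels. The authors deposited raw counts, the whole number of reads per gene name, 1 file per library, with genes at 0 left out. The submitters' processing notes name Bowtie2 2.2.3, HISAT2 2.1.0, TopHat2 and HTSeq 0.6.0 with build hg38, without their roles, and strand use is not given in the sources used here. Counts of genes that overlap another gene are therefore uncertain: among the 10 genes, GREM1 shares 188 exon bases and ID2 38 with genes on the other strand. Some other genes share more, with 932 of 2646 exon bases for GDF5 and 525 bases between KRT8 and KRT18. CD68, 1 of the monocyte and leukocyte genes, shares 1878 of 2189.

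Identical repeated rows were used once and between 22 and 25 date-like names per library were left out. CPM was the count over the library total. Exon lengths (the union of annotated exons) and positions came from GENCODE 29. Differences were tested with edgeR 4.0.16 (R 4.3.3): filterByExpr, TMM and the two-sided quasi-likelihood F test with Benjamini-Hochberg adjustment over all genes tested. The standard error is the log2 fold change over the square root of F. With 2 libraries against 2, exact permutation cannot reach 0.05, so none is given. Alternatives were DESeq2 1.42.0, a replicate block, other normalizations and filters, and leaving out each library. Fits were tested on simulated data in which every library varied as the PBS pair does. That simulation does not cover rIL-17B libraries that differ as these did. Intervals are 95% exact Poisson (levels) or exact binomial (ratios). From each pathway list the gene with the smallest p and that with the highest CPM were named, and any gene that passed. The members, lists and rules were chosen with earlier results of these data known.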

Additional observations from a re-analysis of the deposited data

How the results depend on the processing

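The log2 fold changes of the 10 genes kept their direction and stayed short of the threshold in all 58 values from the replicate block, DESeq2, upper-quartile normalization, library totals alone, no filter and at least 10 counts in every library, a filter that removed BMP7 and ID4. With the replicate block 0 genes passed, and the log2 fold change moved to -3.43 for BMP7, -3.83 for ID4, -2.05 for GREM1 and -1.12 for BMP4. Around the group means, libraries with the same replicate number correlated at 0.0800 over 16361 genes, so a pairing was not shown. Without the filter on low counts, 2 of the 10 genes had an unadjusted p under 0.05, as did 879 of all 31907 genes (2.75%).

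The highest counts of called genes came from the fit without rIL-17B replicate 2, in which 55.1% of all genes tested passed. That fit holds a lone rIL-17B library, and its counts have to be read beside that share. Leaving out each library in turn gave between 0 and 9489 called genes. Among them were between 0 and 7 of the 10 genes and between 0 and 41 of the 62 other pathway genes with counts. The log2 fold change then ran from -3.63 to -0.51 for GREM1, -8.99 to -0.85 for ID4, 0.27 to 0.84 for ID3, 0.24 to 0.56 for ID1, -10.06 to -0.52 for BMP7, -2.29 to -0.00258 for BMP4, -0.97 to -0.0821 for BAMBI, 0.05 to 0.56 for NOG and 0.02 to 0.20 for ID2. No direction was reversed among the 10 genes. On the TMM scale the PBS mean was 5.02 CPM for BMP4, 9.88 for BAMBI, 101.3 for ID1 and 329.6 for ID3. The ratio of rIL-17B replicate 1 became 1.47 for ID1, 1.08 for ID2 and 1.79 for ID3, and with 0.5 CPM added 0.0526 for BMP7 and 0.0155 for ID4. The counts of genes apart on the TMM scale were added after seeing the data.

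The depth limits ID4 and BMP7 in rIL-17B replicate 1, with 1 and 0 counts, and NOG, with 15 to 35 counts per library. The treatment and whatever sets rIL-17B replicate 1 apart cannot be told apart with 2 libraries per group.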
